A study of Arabidopsis thaliana with 12 samples.

Results

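PRK, PPDK, ATSPS4F and ETFQO are 4 Arabidopsis thaliana genes that encode enzymes of carbon fixation, pyruvate recycling, sucrose synthesis and the respiration of amino acids. Each is read by 1 probe, so the set comprises 4 of the 3439 probes on the array and 4 of the 692 probes that the platform annotation assigns to a single gene. The genes were selected by name with their values in the comparison below already known, so their levels and changes are a description of these arrays and not an independent test.

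The study measured total RNA of wild-type plants of ecotype Columbia 0 on 12 arrays with 1 value per probe. For 6 arrays, plants were given 2 µM staurosporine, a broad inhibitor of protein kinases, over 4 h, and next 4 h of 25 mM ascorbate (pH 5.5). For 6 arrays, plants were given water over 4 h and next the identical ascorbate treatment. Ascorbate, the main soluble antioxidant of plant cells, was thus present in both groups and its own effect cannot be read from them. The labels name no tissue. The arrays of each group carry numbers 1 to 6. The labels do not say whether these came from separate plants, and p-values therefore reflect array-to-array spread, possibly technical. Arrays 1 and 2, 3 and 4, and 5 and 6 of a group were on average more alike than others and are called number pairs. Means ± SD are taken over the 3 number-pair means of a group. Levels are normalized intensities, relative values without an absolute unit in which 1 probe cannot be set against another. Deposited array medians ranged from 0.252 to 0.486, and each array had a value of 0 for 10.3% to 15.2% of its probes.

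The 4 enzymes sit at separate points of central metabolism. Phosphoribulokinase (PRK) works in the chloroplast and uses ATP to make ribulose bisphosphate, the CO2 acceptor of the Calvin cycle, and is switched on in the light through thioredoxin. Pyruvate orthophosphate dikinase (PPDK) turns pyruvate into phosphoenolpyruvate. It is best known from maize and similar plants, where it regenerates the acceptor of the CO2 pump, and in Arabidopsis leaves it is known for moving nitrogen out of ageing tissue. Sucrose phosphate synthase, which ATSPS4F encodes, joins UDP-glucose and fructose phosphate in the cytosol in the controlling step of sucrose synthesis. The electron-transfer flavoprotein:ubiquinone oxidoreductase (ETFQO) sits in the inner mitochondrial membrane and passes electrons from the breakdown of branched-chain amino acids and lysine to ubiquinone, a route that plants use when sugar runs short.

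The transcripts of PPDK and ETFQO were lower after staurosporine, and those of PRK and ATSPS4F did not pass the test. PPDK fell 1.70-fold and was lower at all 6 replicate numbers. The labels do not match equal numbers between the groups, and the 6 numbers form only 3 number pairs. ETFQO was lower at all 6 numbers after normalization, with a fitted fall of 3.24-fold that includes 1 array set to a floor; the ratio of water to staurosporine was 2.69 for the means and 2.24 for the medians. In the limma fit over 12 arrays, with p-values adjusted over all 3439 probes, 2 of the 4 genes passed an adjusted p of 0.05, both lower, beside 11.8% of all probes called lower, 11.1% called higher and 22.9% called in either direction. With only the 2584 probes above 0 on every array fitted, which leaves out ETFQO, 848 passed, 408 of them higher. That is a larger share than over all probes. PPDK was among them (limma adjusted p 0.00846), while PRK and ATSPS4F were not. With the number pairs averaged to 1 sample each, 0 of the 4 passed, beside 0.262% of all probes. In that averaged fit 2 of the 4 had an unadjusted p under 0.05, beside 19% of all probes, a count that gives no support because the genes were chosen on this comparison. In total RNA, fewer cells of a type and less transcript per cell cannot be told apart.

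**Figure D1:**
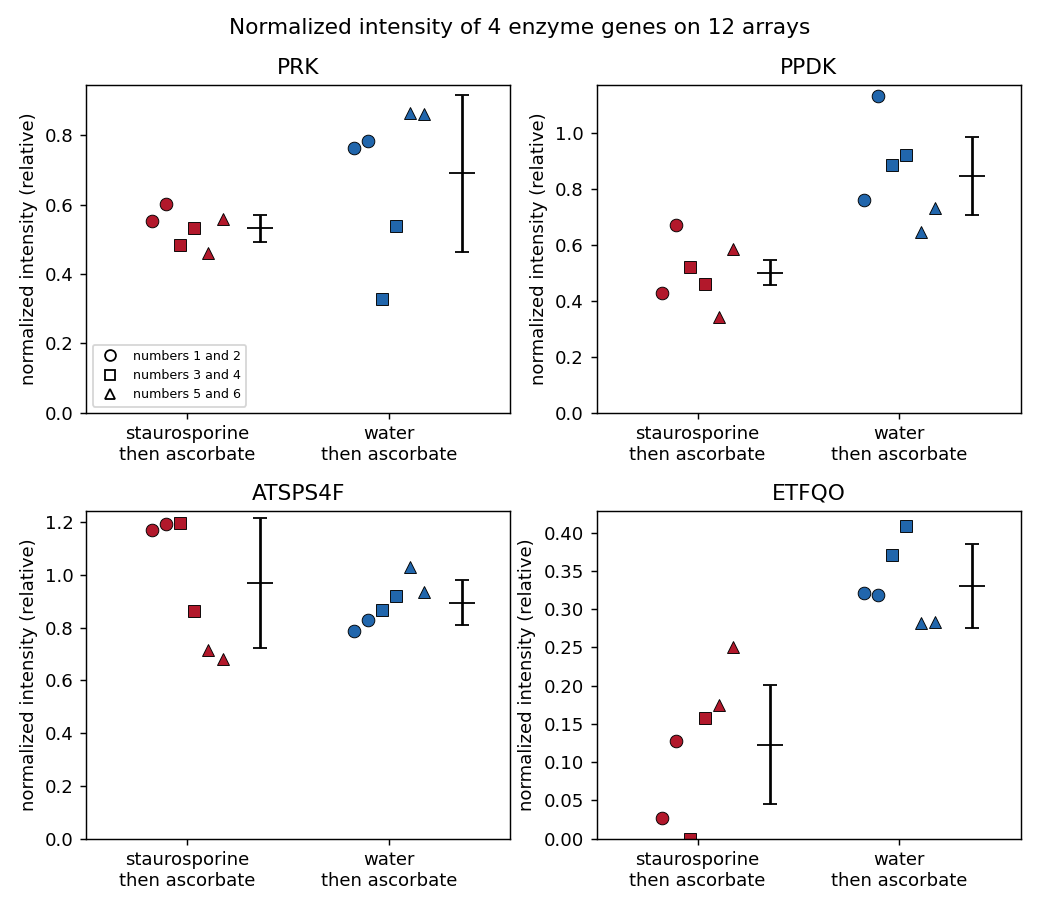
Normalized intensity (relative, linear axis from 0) of the 4 genes on each array, with staurosporine then ascorbate on the left of each panel and water then ascorbate on the right. Symbols mark the number pairs, and the bar with whiskers is the mean ± SD of the 3 number-pair means; ETFQO is the gene whose groups do not overlap, and PPDK overlaps by 1 array on each side.

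PRK, the carbon fixation enzyme, had a lowest, median and highest normalized intensity of 0.462, 0.542 and 0.602 after staurosporine, against 0.329, 0.773 and 0.863 after water. All 6 staurosporine arrays lay inside the range of the water arrays. The means were 0.532 ± 0.0393 after staurosporine and 0.690 ± 0.226 after water (SD, n = 3 number pairs each). The spread was uneven between the groups. On the log2 scale the SD over the 6 arrays was 0.14 after staurosporine, lower than for all but 4.41% of the 2584 probes above 0 on every array, and 0.55 after water, where the median over those probes was 0.34. Water arrays 3 and 4 were the low ones, with 0.329 and 0.539, while the other 4 water arrays ranged up from 0.762.

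The fitted log2 change of PRK was -0.31 ± 0.23 (SE, 12 arrays), with a 95% interval of -0.81 to 0.20 and a limma adjusted p of 0.349. That interval takes the 12 arrays as separate samples. With the number pairs averaged, the 95% interval was wider, -1.12 to 0.50. PRK was lower at 5 of 6 replicate numbers, with number 3 the exception at 0.56. The number pairs gave -0.42, 0.27 and -0.77. The size therefore depended on numbers 3 and 4. Without these numbers in both groups, the change was -0.60 with an adjusted p of 0.0313, and without water replicate 3 alone it was -0.50 with an adjusted p of 0.0475. Without numbers 5 and 6 of both groups it was -0.08. Both intervals reach from above 0 to below the fitted value of PPDK.

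PPDK, the pyruvate recycling enzyme, had a lowest, median and highest normalized intensity of 0.344, 0.491 and 0.671 after staurosporine, against 0.645, 0.823 and 1.13 after water. The groups overlapped at their edges, since staurosporine replicate 2 (0.671) was above water replicate 5 (0.645). The means were 0.501 ± 0.0435 after staurosporine and 0.846 ± 0.138 after water (SD, n = 3 number pairs each). Every number-pair mean after staurosporine (0.549, 0.491 and 0.464) was below every number-pair mean after water (0.946, 0.903 and 0.688). The probe was above 0 on all 12 arrays, so none of its values was set to a floor.

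The fitted log2 change of PPDK was -0.76 ± 0.19 (SE, 12 arrays), with a limma adjusted p of 0.0154 and 0.0118 with the replicate number as a block. At numbers 1, 2, 3 and 5 it lay between -0.91 and -0.76, number 4 gave the largest change and number 6 the smallest (-0.32). As deposited, without normalization, PPDK was also lower at all 6 numbers, by between 0.28 and 1.14 on the log2 scale. The call was kept without any 1 array (adjusted p 0.0110 to 0.0331). It was lost with the number pairs averaged (adjusted p 0.172) and without numbers 1 and 2 (0.0610) or 3 and 4 (0.0978) of both groups.

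**Figure D2:**
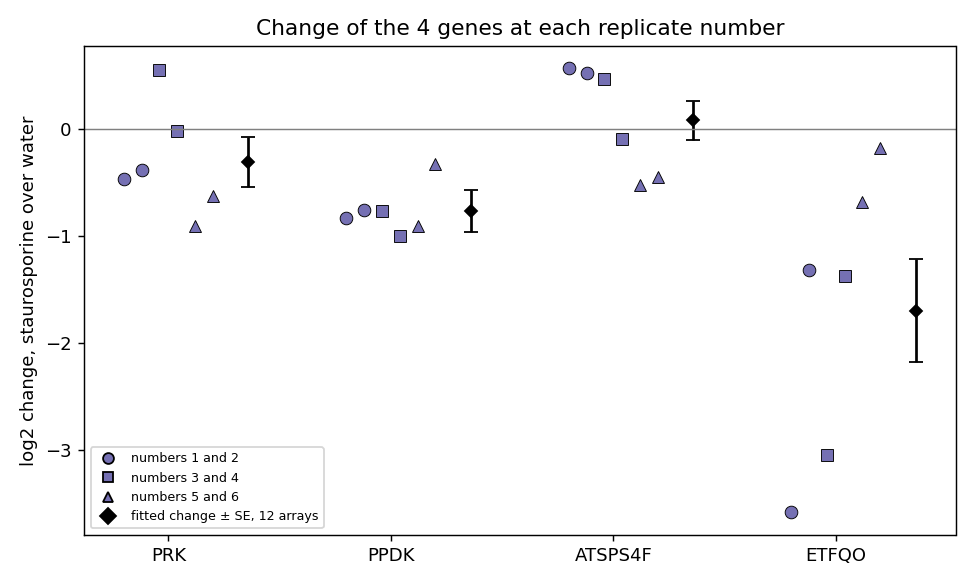
Log2 change (staurosporine over water) of each gene at replicate numbers 1 to 6, from left to right, with symbols for the number pairs and a diamond for the fitted change ± SE over 12 arrays. PPDK lies below 0 at all 6 numbers with number 6 nearest to it at -0.32, while ATSPS4F lies on both sides of 0.

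ATSPS4F, the sucrose phosphate synthase, had a lowest, median and highest normalized intensity of 0.683, 1.02 and 1.198 after staurosporine, against 0.789, 0.894 and 1.03 after water. The staurosporine arrays spanned the whole range of the water arrays and went past it on both sides. The means were 0.971 ± 0.247 after staurosporine and 0.895 ± 0.0864 after water (SD, n = 3 number pairs each). The uneven spread ran the other way from PRK: the SD over 6 arrays on the log2 scale was 0.38 after staurosporine and 0.14 after water. The water value is lower than that of all but 6.08% of the probes above 0 on every array.

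The number pairs of ATSPS4F went in opposite directions. After staurosporine their means were 1.18, 1.03 and 0.700, against 0.810, 0.894 and 0.982 after water, so the order of the pairs was turned round between the groups. The log2 change was 0.55 in numbers 1 and 2, 0.19 in numbers 3 and 4 and -0.49 in numbers 5 and 6, and 3 of 6 numbers were higher and 3 lower. The fitted change was 0.08 ± 0.18 (SE, 12 arrays), with a 95% interval of -0.31 to 0.48 and a limma adjusted p of 0.767. The fitted value near 0 is a mean of differences that went both ways over only 3 number pairs. The labels do not say that equal numbers of the 2 groups belong together. Whether the change truly differed between the pairs was not tested. The fitted change was 0.39 (limma adjusted p 0.214) without numbers 5 and 6 of both groups, -0.14 without numbers 1 and 2, and -0.15 with arrays centred on their medians.

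ETFQO, the respiratory enzyme of amino acid breakdown, had a lowest, median and highest normalized intensity of 0, 0.143 and 0.250 after staurosporine, against 0.281, 0.320 and 0.408 after water. The groups did not overlap after normalization, which held for 1 of the 4 genes, beside 7.68% of all probes with no overlap and lower values after staurosporine. In the deposited values they did overlap, with 0 to 0.347 after staurosporine against 0.195 to 0.403 after water, as they did for all 4 genes, beside 5.38% of all probes that separated in this direction. As deposited, ETFQO was lower at 5 of 6 numbers and higher by 0.18 on the log2 scale at number 6.

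The fitted log2 change of ETFQO was -1.70 ± 0.49 (SE, 12 arrays), with a limma adjusted p of 0.0260 and 0.0390 with the replicate number as a block. The spread lay almost wholly in the staurosporine group, with an SD over 6 arrays of 1.26 on the log2 scale after staurosporine and 0.21 after water. At numbers 1 to 6 the change was -3.59, -1.32, -3.05, -1.37, -0.68 and -0.18. Numbers 1 and 3 carried the largest changes: staurosporine replicate 1 had a normalized intensity of 0.0267, and staurosporine replicate 3 was listed at 0 and took the floor of its array, 0.0447, for the log2 value. With an offset instead of the floor the change was -1.73 (adjusted p 0.0480), and without staurosporine replicate 3 it was -1.43 (0.0485). The call was lost without further normalization (adjusted p 0.144), with median centring (0.0584) and with the number pairs averaged (0.153). It was also lost without numbers 1 and 2 (0.125), 3 and 4 (0.104) or 5 and 6 (0.0671) of both groups.

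**Figure D3:**
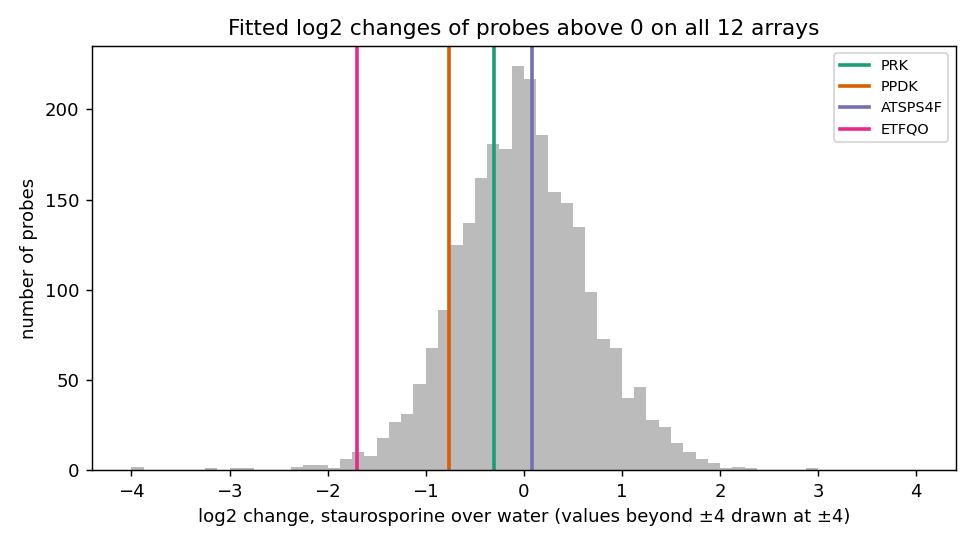
Distribution of the fitted log2 change (staurosporine over water) of the 2584 probes above 0 on all 12 arrays, with vertical lines for the 4 genes; ETFQO, listed at 0 on 1 array, is drawn but is not among these probes. PRK and ATSPS4F fall in the middle of the distribution, and 310 of the probes lie below PPDK and 26 below ETFQO.

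Set among all probes, the 4 changes ranged from the middle of the distribution to its lower edge. Of the 2584 probes above 0 on every array, 26 had a lower fitted change than ETFQO, 310 a lower one than PPDK, 851 a lower one than PRK and 1474 a lower one than ATSPS4F. The median fitted log2 change of these 2584 probes was -0.02 with quantile normalization and 0.15 without it. Over all 3439 probes it was -0.12 and 0.19, but that includes 109 probes at 0 on every array, whose fitted change of -1.12 with quantile normalization comes from the array floors alone. Relative to the median of the 2584 probes, PPDK stood at -0.74 with quantile normalization and -0.79 without it, and ETFQO at -1.68 and -1.90. PRK stood at -0.29 and -0.33. ATSPS4F stood at 0.10 with quantile normalization and -0.01 without it, so its side of the median turned with the normalization. Among called probes 48.4% were higher with quantile normalization, 60.6% without it and 34.4% with median centring.

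The 4 genes did not share 1 pattern over the arrays. The Pearson correlation of normalized log2 intensity over the 12 arrays was 0.64 between PPDK and ETFQO (Spearman 0.82), which are the 2 genes that fell, and 0.16 once each group's mean was removed. ATSPS4F and ETFQO ran against each other, with a Pearson correlation of -0.63 (Spearman -0.43) and -0.75 within the groups. That within-group value rests mostly on the staurosporine arrays, where the log2 SD of ETFQO was 1.26 against 0.21 after water. Staurosporine replicate 3, set to the floor for ETFQO, is among them. The other 4 pairs of genes had Pearson correlations between -0.05 and 0.27. These values describe 12 arrays on which all 4 genes share RNA and normalization, and on which the arrays of a number pair are alike.

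For each enzyme, the 3 genes most like it were taken by Pearson correlation over the 12 arrays from 521 other single-gene probes above 0 on every array. For PPDK they were AT4G22830 (0.87), AT2G28540 (0.87) and AT3G50880 (0.87), with log2 changes of -0.35 ± 0.13, -0.28 ± 0.11 and -0.46 ± 0.16 (SE). None of these 3 passed, with adjusted p of 0.0635, 0.0882 and 0.0542 (limma), so the genes closest to PPDK in pattern had smaller fitted changes than PPDK. With group means removed, their correlations with PPDK were 0.65, 0.61 and 0.69.

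The genes most like ETFQO were AT3G09050 (0.91), AT4G22650 (0.84) and AT3G11150 (0.82). AT4G22650 averaged 0.390 ± 0.0683 after staurosporine and 1.22 ± 0.224 after water (SD, n = 3 number pairs each), a log2 change of -1.71 ± 0.24 (limma adjusted p 0.000564). AT3G11150 averaged 0.553 ± 0.0661 after staurosporine and 0.865 ± 0.0534 after water, a log2 change of -0.65 ± 0.13 (limma adjusted p 0.00411). AT3G09050 had a log2 change of -0.39 ± 0.16 and did not pass (0.106). AT4G22650 and AT3G11150 passed as lower, beside 11.8% of all probes. All 3 were picked for likeness to ETFQO over both groups, so their lower values come partly with the selection and give no support. Of these 3, AT3G09050 kept the highest Pearson correlation with ETFQO within the groups, at 0.83. It had the lowest Spearman correlation of the 3 over the 12 arrays, at 0.69.

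The genes most like PRK were AT3G53580 (0.83), AT2G46220 (0.80) and AT1G02020 (0.78), and their correlations within the groups were nearly as high, from 0.75 to 0.82. None of the 3 passed, and AT1G02020 came closest with a log2 change of -1.40 ± 0.47 (limma adjusted p 0.0515). The genes most like ATSPS4F were AT1G13990 (0.76), AT2G03200 (0.75) and AT1G07970 (0.75). AT2G03200 had a correlation of 0.96 with ATSPS4F within the groups, and a log2 change of -0.70 ± 0.36 (adjusted p 0.198) where that of ATSPS4F was 0.08. These likenesses were picked as the highest of 521 and carry no test.

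The neighbouring enzymes of the same pathways could hardly be read. Of 174 loci on 6 lists (Calvin cycle, pyruvate and phosphoenolpyruvate, sucrose synthesis, amino acid respiration, alternative respiration and tricarboxylic acid cycle), 6 had a probe of their own, and 4 of these are the genes above. SBPASE, the sedoheptulose bisphosphatase of the Calvin cycle, was listed at 0 on all 12 arrays and is given no change. AT5G44520, from the Calvin cycle list, was listed at 0 on all 6 staurosporine arrays and on 4 of 6 water arrays, with a highest water value of 0.127, and is given no fold; it did not pass in limma (adjusted p 0.192). So 5 of the 174 had a signal, of which 0 passed as higher (beside 11.1% of all probes) and 2 passed as lower (beside 11.8%). These 2 are PPDK and ETFQO, which were selected with this result known, so the count restates the selection and says nothing of the pathways. The remaining 5 lists held no measured gene beside the enzymes described here, and the alternative oxidases and the subunits of the electron-transfer flavoprotein had no probe of their own. A further 8 listed loci lie on 6 probes shared with other genes; 1 of these 6 passed, beside 22.9% of all probes. It was probe 2324 from the tricarboxylic acid cycle list with a log2 change of 1.32 ± 0.22 (limma adjusted p 0.00159), and which of its 2 genes gave that signal cannot be told apart.

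Markers of tissues and cell types were as sparse, and the sampled tissue is not named. Of 18 leaf photosynthesis markers 2 had a probe of their own, and none of the 26 root, guard cell and phloem markers did. LHB1B2, an antenna protein of photosystem II, ranged from 1.16 to 1.44 after staurosporine, against 1.52 to 2.72 after water. PSAN, a subunit of photosystem I, ranged from 0.500 to 0.564 after staurosporine, against 1.43 to 2.06 after water. Both photosynthesis markers were above 0 on all 12 arrays. Both were lower after staurosporine (limma adjusted p 0.0177 for LHB1B2 and 9.13e-06 for PSAN), beside 11.8% of all probes called lower. With only the probes above 0 on every array fitted, a larger share passed. A further listed leaf marker, 1 locus, lies on 1 shared probe, which passed in neither direction. The part of LHB1B2 and PSAN in the changes of PPDK and ETFQO was not tested.

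**Figure D4:**
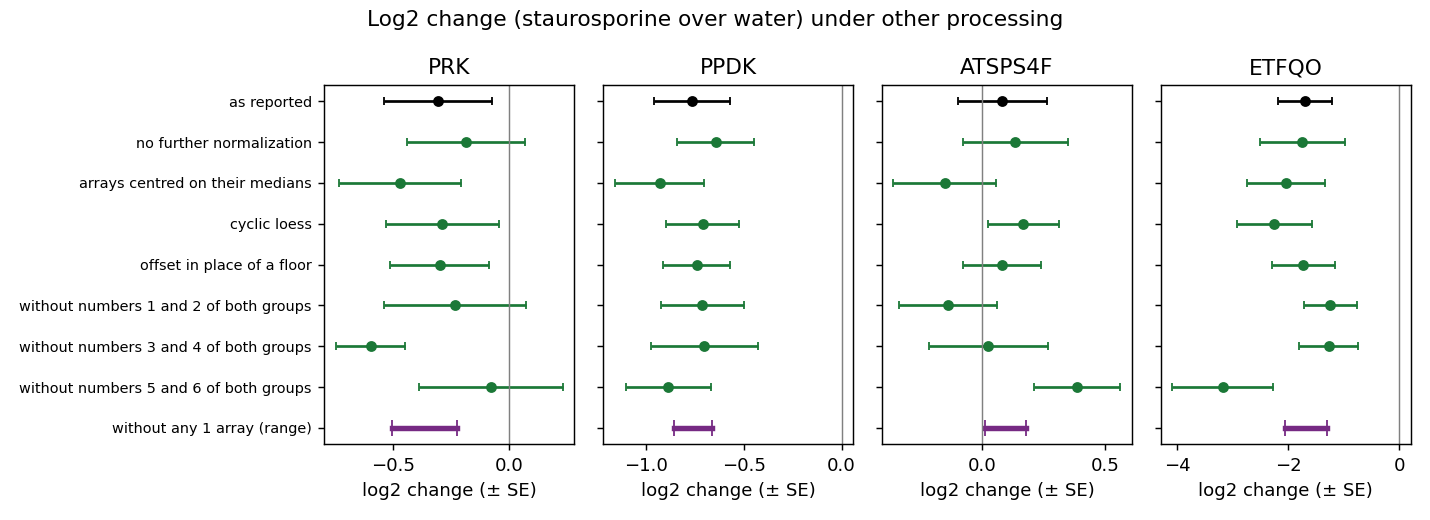
Fitted log2 change (staurosporine over water, ± SE) of the 4 genes as reported and under other normalizations, with an offset instead of a floor, and without the arrays of 1 number pair in both groups; the bottom bar is the range without any 1 array. PPDK and ETFQO lie below 0 throughout, PRK approaches 0 without numbers 5 and 6, and ATSPS4F lies on both sides of 0.

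Over the other settings, the fitted changes of 3 of the 4 genes kept their sign and the calls did not all hold. Averaging number pairs, adding a block or filtering the probes leaves the fitted change itself the same. Its sign under those settings was therefore fixed in advance and gives no further support. PPDK was lower under all 24 other settings run, with log2 changes from -0.93 to -0.64, and passed without any 1 array (12 of 12) and under 7 of the other 12. ETFQO was lower under all 23 settings that gave it a value, from -3.18 to -1.24. It passed without any 1 array (12 of 12) but under only 3 of the other 11. Leaving out 1 array keeps the other array of its number pair, so those 12 fits cannot show dependence on a number pair. Without each whole number pair of both groups the ETFQO call was lost (limma adjusted p 0.125, 0.104 and 0.0671). PRK was below 0 under all 24 settings, from -0.60 to -0.08, and passed under 2, without water replicate 3 and without numbers 3 and 4 of both groups. The number pairs of PRK did not share a direction, at -0.42, 0.27 and -0.77. ATSPS4F was above 0 under 22 settings and below 0 under 2, and passed under none, with adjusted p from 0.214 to 0.970.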

How the data were processed

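Total RNA of plants was measured on 12 arrays, and groups and numbers were taken from the sample titles. The deposited series table gives, per probe and array, 1 linear intensity; the authors' steps behind it are not stated in the labels or the table and stay unknown here. Because array medians differed by over 5%, quantile normalization was applied, values under the 1st percentile of an array's positive values (0 included) were set to it, and log2 was taken. The comparison used limma 3.58.1 under R 4.3.3 (lmFit, eBayes, no block, 2-sided, Benjamini-Hochberg over 3439 probes, threshold 0.05). The fit was tested on simulated data in which every array was drawn independently. That test does not cover the likeness of arrays within a number pair. Changes are staurosporine over water. The number of arrays limits the precision.

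Probes were named by the platform annotation, which can be old, matched to TAIR10.1 gene symbols; 692 probes have 1 gene (690 matched), 870 several and 1877 none listed. Named genes are the 4 enzymes, listed genes with a probe of their own, and for each enzyme the 3 single-gene probes of highest correlation; SBPASE, listed at 0 throughout, and a shared probe were added to account for the lists. Members and lists were chosen with earlier results of these data known. Same-numbered arrays of the 2 groups deviated together from their group means (correlations 0.297 to 0.545 for the 6 numbers), so the number was used as a block in an alternative. Other alternatives changed the normalization, the floor, the filter, the independence of arrays and the arrays included. Gene positions are left out, since the sources name no genome build.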

Additional observations from a re-analysis of the deposited data

Results flagged for a closer look

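No single array of the 4 genes passed Dixon's 95% critical value for 6 arrays, in any of 8 groups (4 genes in both groups), on linear normalized intensity or on the log2 scale. Chance passes it in about 1 in 20 groups. The test seeks 1 array apart from the rest, so a number pair that is low together can escape it. On the log2 scale the largest ratio of gap to range was 0.512, for PRK in water replicate 3, the array without which PRK passed in limma. On the linear scale it was 0.436, for PPDK in water replicate 2.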

How the results depend on the processing

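The number of probes called depended most on whether arrays of a number pair count as separate samples. It was 788 over 12 arrays, 809 with a replicate block (the number), 191 with a random block for the number pair, 9 with number pairs averaged and 2 with the averaged pair also as a replicate block. It was 473 without numbers 1 and 2, 644 without numbers 3 and 4 and 377 without numbers 5 and 6 of both groups, with fewer arrays in each. It ranged from 614 to 751 without any 1 array, and was 848 with only the 2584 probes above 0 on every array fitted. Of the pathway genes with a signal, 2 passed as reported, PPDK and ETFQO. This count was 1 without further normalization, with arrays centred on their medians, with only probes above 0 on all arrays (which leaves out ETFQO) and without numbers 3 and 4 (where it was PRK) or 5 and 6, and 0 without numbers 1 and 2 and in the 3 fits that do not take arrays of a number pair as separate samples. Without any 1 array it ranged from 2 to 3, the 3 arising without water replicate 3, where PRK passed. Without numbers 5 and 6, ATSPS4F moved to 0.39 and ETFQO to -3.18. Blocking on the replicate number changed no call of the 4 genes. The changes of PRK, PPDK, ATSPS4F and ETFQO ranged over -0.50 to -0.23, -0.86 to -0.66, 0.01 to 0.18 and -2.06 to -1.30 without any 1 array. Where no cause is given, it was not tested. Arrays hold no counts, so depth cannot be given; ETFQO, with values at or near the floor after staurosporine, is the least certain.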
